A study of Mus musculus with 20 samples.

Results

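The kinases that move HDAC4 out of the nucleus were followed here as 10 genes, namely the CaM kinases Camk1, Camk1d, Camk1g and Camk4, the protein kinase D genes Prkd1, Prkd2 and Prkd3, and the salt-inducible kinases Sik1, Sik2 and Sik3. Every probe set whose annotated symbol was one of these was taken, which gave 31 of the 45037 probe sets tested, 11 for the CaM kinases, 11 for protein kinase D and 9 for the salt-inducible kinases. RNA came from whole brains of neonates at postnatal day 3 (P3), 10 WT and 10 Hdac4KO, with 5 males and 5 females of each genotype by the labels and 1 Affymetrix mouse genome array per brain. Hdac4KO mice were homozygous for a knock-out allele of Hdac4, were bred by intercrossing heterozygotes from a colony crossed onto B6CBAF1/OlaHsd females, and were compared with WT mice. No animal was treated. The part of Hdac4 that the allele lacks was not given in the sources used here.

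HDAC4 is a class IIa histone deacetylase that represses transcription in the nucleus by binding factors such as MEF2. When it is phosphorylated on conserved serines, 14-3-3 proteins bind it and hold it in the cytoplasm, and its target genes are released. CaM kinases do this in response to calcium, protein kinase D in response to diacylglycerol and protein kinase C, and salt-inducible kinases under the control of the kinase LKB1 and of cAMP-dependent protein kinase (PKA), which inhibits them. An array measures the RNA of these kinases and not their activity, which is set largely by calcium, lipids and phosphorylation. The comparison asks whether brains without Hdac4 contained more or less of the RNA of its kinases.

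At the level of RNA the log2 fold changes of the 31 kinase probe sets, Hdac4KO minus WT, ran from -0.25 to 0.49. By limma, 1 of the 31 probe sets, one of Camk1, passed an adjusted p of 0.05 with a higher signal in Hdac4KO brains, and 0 passed with a lower signal. Among all probe sets tested 1.05% were higher and 1.01% lower by the same rule, so a count of 1 in 31 is read as close to the background. At an unadjusted p under 0.05, 7 of the 31 were higher and 2 lower, against 9.93% and 8.1% of all probe sets. The median log2 fold change was 0.04 over the 31 probe sets and 0.0035 over all probe sets. In none of the 31 were the 2 genotypes' arrays fully apart. The share of all probe sets with such a split was not counted, so this is not read as a result about the kinases. On 20 of the 31 the signal exceeded the median of the array on 10 or more arrays, and the other 11 are termed dim.

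The windows around the start sites of the kinase genes were read for 2 elements through which calcium and cAMP act on genes, the cAMP response element that binds CREB and the MEF2 site. RefSeq (GRCm38.p6) gave 11 windows for 8 of the 10 genes, each from 250 bases before to 50 bases after a start. Neither Camk4 nor Sik1 was matched. The full element TGACGTCA was found on either strand in 0 of the 11 windows, against 1.79% of 32851 windows of all genes. The MEF2 consensus was in 0 of the 11 as well, against 3.19%. The core TGACG, searched on both strands and contained in the full element, was in 3 of the 11 windows, those of Camk1, Sik2 and Sik3, against 20.8% of all windows. A match of these letters is not evidence that a factor binds there. The whole Camk1 window, chr6:113343873-113344172 on the minus strand, is given because Camk1 is the gene with the called probe set. For Sik2, chr9:51009042-51009089 on the minus strand, and Sik3, chr9:46012672-46012782 on the plus strand, the stretch with the core matches is given. Each is written 5′ to 3′ on the strand of the gene, with TGACG, or its reverse CGTCA, in capitals.
Camk1: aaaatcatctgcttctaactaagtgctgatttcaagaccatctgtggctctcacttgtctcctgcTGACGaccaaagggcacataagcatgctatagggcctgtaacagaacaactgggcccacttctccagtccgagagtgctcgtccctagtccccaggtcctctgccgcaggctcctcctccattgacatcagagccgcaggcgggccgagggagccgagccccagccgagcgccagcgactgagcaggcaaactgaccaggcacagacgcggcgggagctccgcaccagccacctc
Sik2: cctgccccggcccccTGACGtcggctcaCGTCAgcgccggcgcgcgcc
Sik3: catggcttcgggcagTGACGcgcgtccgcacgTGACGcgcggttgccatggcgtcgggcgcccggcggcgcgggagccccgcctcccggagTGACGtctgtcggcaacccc
The single core match of Camk1 began 185 bases before the start. Sik2 held 2, both within 12 bases of the start, and Sik3 held 3, between 133 and 57 bases before it.

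As a check of the labels, all 3 probe sets of Hdac4 fell in Hdac4KO brains, with log2 fold changes of -1.39, -1.19 and -0.46 (adjusted p = 6.28e-07, 9.48e-07 and 0.0198 by limma). At the 2 probe sets with the larger changes, Hdac4KO replicate 10 and WT replicate 8 lay nearest to the other genotype. On 3 arrays the sex-linked genes went against the labelled sex. WT replicates 5 and 9 had the pattern of the other sex. Hdac4KO replicate 10, labelled male, showed signal of both Xist (12.27, against at most 6.57 on the 8 male arrays whose genes matched the label and 12.77 to 12.97 on the 9 such female arrays) and the Y-linked Kdm5d (6.88, against 7.81 to 8.20 and 2.82 to 3.15). Whether that array holds RNA of more than 1 animal was not tested. Array medians ran from 6.26 to 6.32. The difference between 3′ and 5′ signals of the actin and Gapdh controls is a measure of RNA quality. It was 0.191 ± 0.031 in WT and 0.216 ± 0.030 in Hdac4KO arrays (SD, n = 10 each, two-sided permutation p = 0.0844). With this measure as a covariate the Hdac4 probe set of smallest change did not pass (log2 fold change -0.48, adjusted p = 0.0802 by limma). The 2 with the larger changes still passed (adjusted p = 5.76e-07 and 1.28e-07 by limma). Where the covariate changed calls of kinase probe sets, or of listed genes at their brightest probe set, values or counts are given. The 8 neuronal markers averaged 12.6 to 12.7 on the log2 scale in every array, and all 8 exceeded the array medians, in keeping with the label of brain tissue. What follows is on whole brain, where fewer cells of a type and less RNA per cell cannot be told apart.

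CaM kinase I is switched on by calcium-bound calmodulin and by CaM kinase kinases. Camk1, which encodes its alpha form, had 2 probe sets. At 1417604_at the log2 signals of WT replicates 1 to 10 were 9.13, 9.04, 9.04, 9.06, 9.05, 9.03, 9.03, 9.05, 9.18 and 8.98. Those of Hdac4KO replicates 1 to 10 were 9.28, 9.15, 9.07, 9.08, 9.20, 9.13, 9.28, 9.30, 9.26 and 9.36. The ranges overlapped, and 6 Hdac4KO arrays lay above every WT array while none of the 10 fell below the WT mean. The mean rose from 9.06 ± 0.06 to 9.21 ± 0.10 (SD, n = 10 each), a log2 fold change of 0.15 (95% interval 0.07 to 0.23) or a ratio of 1.11 (adjusted p = 0.0427, limma). This was the only called probe set of the 10 genes.

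The call lay close to the threshold. Without the 3 arrays against their sex label the adjusted p was 0.0689, and without the arrays nearest the other genotype 0.0985, by limma. With 1 array left out it was kept in 6 of 20 fits and lost in 14, where the adjusted p was 0.0573 to 0.0829 by limma. The arrays whose loss ended it were WT replicates 2, 3, 4, 5, 6, 7, 8 and 10 and Hdac4KO replicates 1, 5, 7, 8, 9 and 10. With the 3′ to 5′ measure as a covariate the log2 fold change was 0.14 and the adjusted p 0.151. The other probe set, 1417605_s_at, has the higher mean over the 20 arrays and did not pass, with a log2 fold change of 0.11 (95% interval 0.04 to 0.18, adjusted p = 0.080 by limma). There 8 of the 10 Hdac4KO arrays exceeded every WT array, whose range was 8.99 to 9.17. The log2 fold changes at the 2 probe sets differed by 0.04 (permutation p = 0.194, adjusted 0.509 over 21 pairs). Across arrays the 2 moved in the same direction, with r = 0.78 and rho = 0.72 over the 10 WT arrays (permutation p = 0.0083 and 0.0236) and r = 0.62 and rho = 0.66 over the 10 Hdac4KO arrays (permutation p = 0.0551 and 0.0424). Adjusted over the 42 such relations computed, the p of r was 0.0694 and 0.231 and that of rho 0.198 and 0.203. Without the 2 arrays farthest from the median of the brighter probe set, r was 0.70 in WT and 0.48 in Hdac4KO.

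By a rule set on likeness alone, the genes whose signals were most like Camk1 at 1417604_at over the 20 arrays, after each genotype's mean was subtracted, were Otub2 (r = 0.86), Chml (r = 0.84) and C1galt1 (r = 0.83), out of 19796 probe sets compared. These are descriptions of shared variation between arrays, which also share their labelling and scaling. The log2 fold changes of the 3 were 0.03, 0.07 and 0.13, and 0 of them passed the test (adjusted p = 0.756, 0.508 and 0.229 by limma).

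Camk1d and Camk1g encode the delta and gamma forms of CaM kinase I. At the brightest of 3 probe sets of Camk1d, 1452050_at, WT arrays ran from 9.45 to 9.61 with a median of 9.51 and Hdac4KO arrays from 9.45 to 9.74 with a median of 9.60. The log2 fold change was 0.10 (95% interval 0.02 to 0.17, adjusted p = 0.149 by limma), with 9 of 10 Hdac4KO arrays above the WT mean. The second, 1426389_at, had a log2 fold change of -0.05, and the 2 differed by -0.15 (permutation p = 0.013, adjusted 0.0546 over 21 pairs). Signals at this second probe set spread more widely in Hdac4KO (SD 0.187) than in WT arrays (SD 0.041), since Hdac4KO replicates 9 and 10 stood at 8.58 and 8.56 and the other 8 between 8.90 and 9.10. Without replicate 9 its log2 fold change was -0.018, and without replicate 10 it was -0.015. The difference from the brightest probe set was then -0.12 and -0.10 (adjusted permutation p = 0.0856 and 0.0957 over 21 pairs). The third, 1438643_at, gave 0.16 (adjusted p = 0.349 by limma). Camk1g had 1 probe set, 1424633_at, at which WT arrays ran from 8.85 to 9.13 and Hdac4KO arrays from 9.01 to 9.28. None of the 10 Hdac4KO arrays fell below the WT mean and 4 exceeded every WT array, and the log2 fold change was 0.11 (95% interval 0.02 to 0.19, adjusted p = 0.173 by limma). Camk1g lies on chromosome 1, as does Hdac4, with 583 named genes between them.

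**Figure D1:**
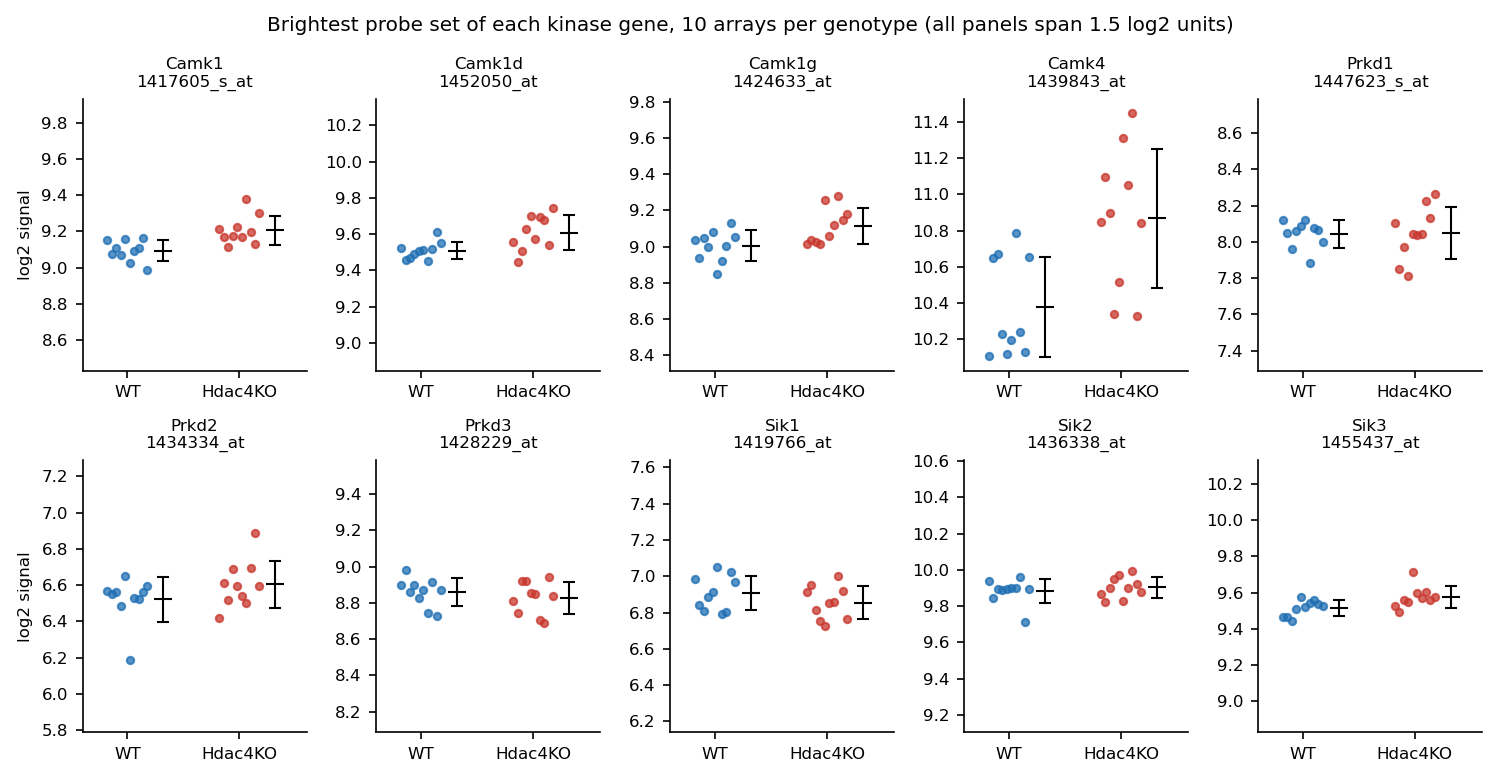
Log2 signal (vertical axis, 1.5 log2 units in each panel) of the brightest probe set of each of the 10 kinase genes in WT (blue) and Hdac4KO (red) arrays, 1 point per array in order of replicate number, with the mean and SD of the 10 arrays in black. Camk4 shows the widest spread, with SDs of 0.275 and 0.382, and in all 10 panels the genotypes overlap.

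Camk4 encodes CaM kinase IV, a nuclear kinase of neurons that also phosphorylates CREB. It was among the genes that the study took from these arrays for qPCR, so its direction here is not independent of that choice. By that qPCR the study reports a modest increase of its RNA in Hdac4KO brains. On the arrays Camk4 had 5 probe sets, and they did not move alike. At the brightest, 1439843_at, the log2 signals of WT replicates 1 to 10 were 10.11, 10.65, 10.67, 10.23, 10.12, 10.20, 10.79, 10.24, 10.13 and 10.65. Those of Hdac4KO replicates 1 to 10 were 10.85, 11.09, 10.89, 10.34, 10.51, 11.31, 11.05, 11.45, 10.33 and 10.84. Here 7 Hdac4KO arrays lay above every WT array, while replicates 4, 5 and 9 lay within the WT range. The means were 10.38 ± 0.28 and 10.87 ± 0.38 (SD, n = 10 each) and the log2 fold change was 0.49 (95% interval 0.20 to 0.77), a ratio of 1.40, which did not pass over all probe sets (adjusted p = 0.0621, limma). Without the 3 arrays against their sex label the adjusted p was 0.173, and without the arrays nearest the other genotype 0.129, by limma. It was the largest difference of the 31 in size.

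The second Camk4 probe set, 1426167_a_at, differed in the other direction. WT replicates 1 to 10 gave 7.73, 7.67, 7.65, 7.99, 7.88, 7.96, 7.68, 8.04, 7.83 and 7.57. Hdac4KO replicates 1 to 10 gave 7.61, 7.07, 7.60, 7.93, 7.91, 7.24, 7.77, 7.32, 7.52 and 7.54. Of the Hdac4KO arrays 5 lay below every WT array, and replicates 4 and 5 lay in the upper part of the WT range. The log2 fold change was -0.25 (95% interval -0.45 to -0.05, adjusted p = 0.164 by limma). The third, 1441974_at, had means of 7.59 ± 0.55 and 7.68 ± 0.92, the widest spread of all 31, and a log2 fold change of 0.09 (95% interval -0.55 to 0.74). The remaining 2 were dim, with log2 fold changes of -0.04 at 1421941_at and -0.10 at 1452572_at.

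The genotype difference was then compared between probe sets of the same gene within each array. Of 21 pairs of a brightest and another probe set, in the 9 genes that have several, 1 passed a two-sided permutation test adjusted over the 21. It was Camk4 at 1439843_at against the dim 1452572_at, where the log2 fold changes differed by -0.58 (permutation p = 0.0016, adjusted 0.0336). With 1 array left out it passed in 7 of 20 cases, and in the other 13 the adjusted p was 0.0501 to 0.076 by the permutation test; these 13 were WT replicates 1, 2, 4, 5, 6, 7, 8 and 9 and Hdac4KO replicates 1, 2, 6, 7 and 8. Against 1426167_a_at the difference was larger in size, -0.74, with more spread (permutation p = 0.006, adjusted 0.0546), and against 1421941_at it was -0.53 (permutation p = 0.0087, adjusted 0.0546). The signal at 1452572_at exceeded the array median on 0 of the 20 arrays, so this pair adds little to the values of the brightest probe set alone. Among the 10 pairs in which neither probe set was dim, with adjustment over those 10, 3 passed the permutation test, each at an adjusted p of 0.0433. These were Camk4 at 1439843_at against 1426167_a_at, Camk1d at 1452050_at against 1426389_at, and Sik2 at 1436338_at against 1457276_at. Whether these 3 still pass over the 10 pairs with arrays left out was not tested. The transcripts of Camk4 that each probe set reads were not given in the sources used here.

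**Figure D2:**
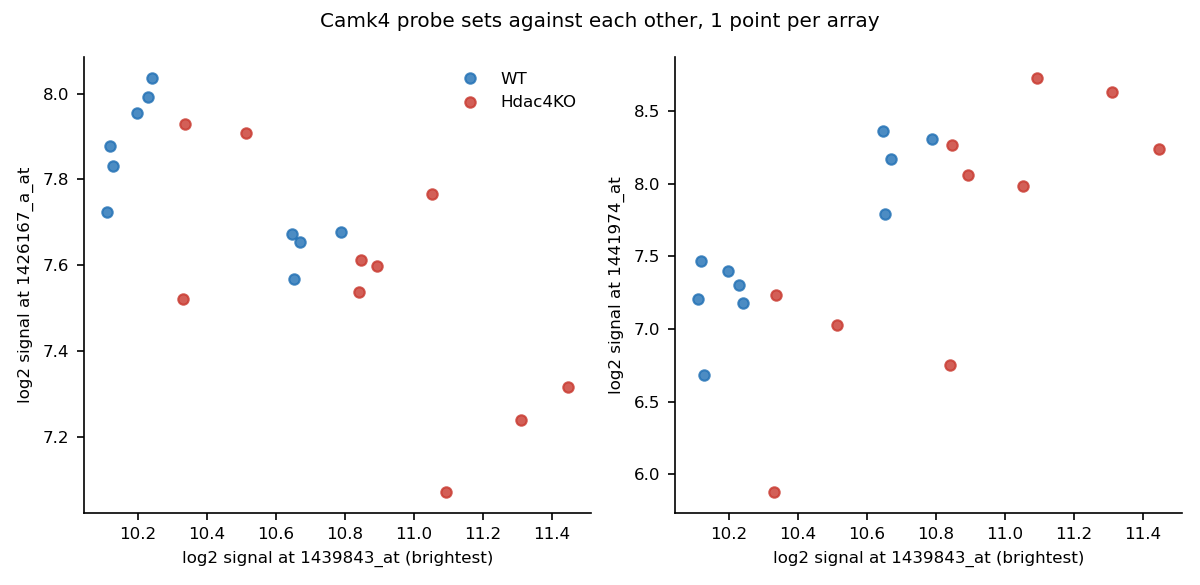
Log2 signals of 2 Camk4 probe sets, 1426167_a_at (left, vertical axis) and 1441974_at (right, vertical axis), against the brightest, 1439843_at (horizontal axes), 1 point per array, WT blue and Hdac4KO red. The 4 WT arrays at 10.65 to 10.79 on the horizontal axes lie at 7.57 to 7.68 on the left and 7.79 to 8.36 on the right.

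By labelled sex, the log2 fold change of Camk4 at 1439843_at was 0.74 in males (SE 0.18) and 0.23 in females (SE 0.18), and the difference of 0.51 did not pass (interaction p = 0.061, adjusted 0.917 by limma). Of the 31 probe sets 1 had an unadjusted interaction p under 0.05, the dim 1444691_at of Prkd3 (p = 0.0065, adjusted 0.915 by limma), against 5.35% of all probe sets. After adjustment 0 of the 31 and 0 of all 45037 probe sets showed an interaction. These values include the 3 arrays against their sex label. On the other 17 arrays the log2 fold change of Camk4 at 1439843_at was 0.75 in males and 0.12 in females (interaction p = 0.0367, adjusted 0.579 by limma). On these 17 arrays WT males stood at 10.11 to 10.24 and WT females at 10.65 to 10.79. These are 2 separate ranges of WT signal, so sex and whatever else separates them cannot be told apart. There 5 of the 31 had an unadjusted interaction p under 0.05, against 8.38% of all probe sets, which were 2 of Prkd1, 2 of Camk4 and that of Prkd3, and after adjustment again 0 passed (lowest adjusted p 0.572 by limma).

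Protein kinase D relays signals from diacylglycerol to class IIa deacetylases. At the brightest probe set of Prkd1, 1447623_s_at, WT arrays ran from 7.88 to 8.12 and Hdac4KO arrays from 7.81 to 8.27. The log2 fold change was 0.0053 (95% interval -0.10 to 0.11), and the second probe set, 1422673_at, gave 0.04 (95% interval -0.05 to 0.13). Prkd2 was read by 5 probe sets, of which only 1434334_at was not dim. There WT arrays ran from 6.19 to 6.65 and Hdac4KO arrays from 6.42 to 6.89, with a log2 fold change of 0.08 (95% interval -0.03 to 0.20, adjusted p = 0.458 by limma). The 4 dim probe sets of Prkd2 had log2 fold changes of 0.02 to 0.13. Prkd3 gave -0.03 at 1428229_at (95% interval -0.11 to 0.05) and -0.07 at 1428230_at (95% interval -0.19 to 0.06). The 2 bright Prkd3 probe sets moved together across arrays, with r = 0.73 and rho = 0.87 in WT (permutation p = 0.0159 and 0.0022) and r = 0.81 and rho = 0.85 in Hdac4KO (permutation p = 0.0046 and 0.003). Adjusted over the 42 relations, the p of rho was 0.0423 in both genotypes and that of r 0.111 and 0.064. Without the 2 farthest arrays r was 0.73 and 0.82. Of the 11 protein kinase D probe sets 0 passed at an unadjusted p under 0.05 by limma. Among all probe sets 9.93% were higher and 8.1% lower by that rule, so 0 in 11 is not read as a result about this family. The intervals of the 5 brighter ones reached no farther than -0.19 and 0.20.

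**Figure D3:**
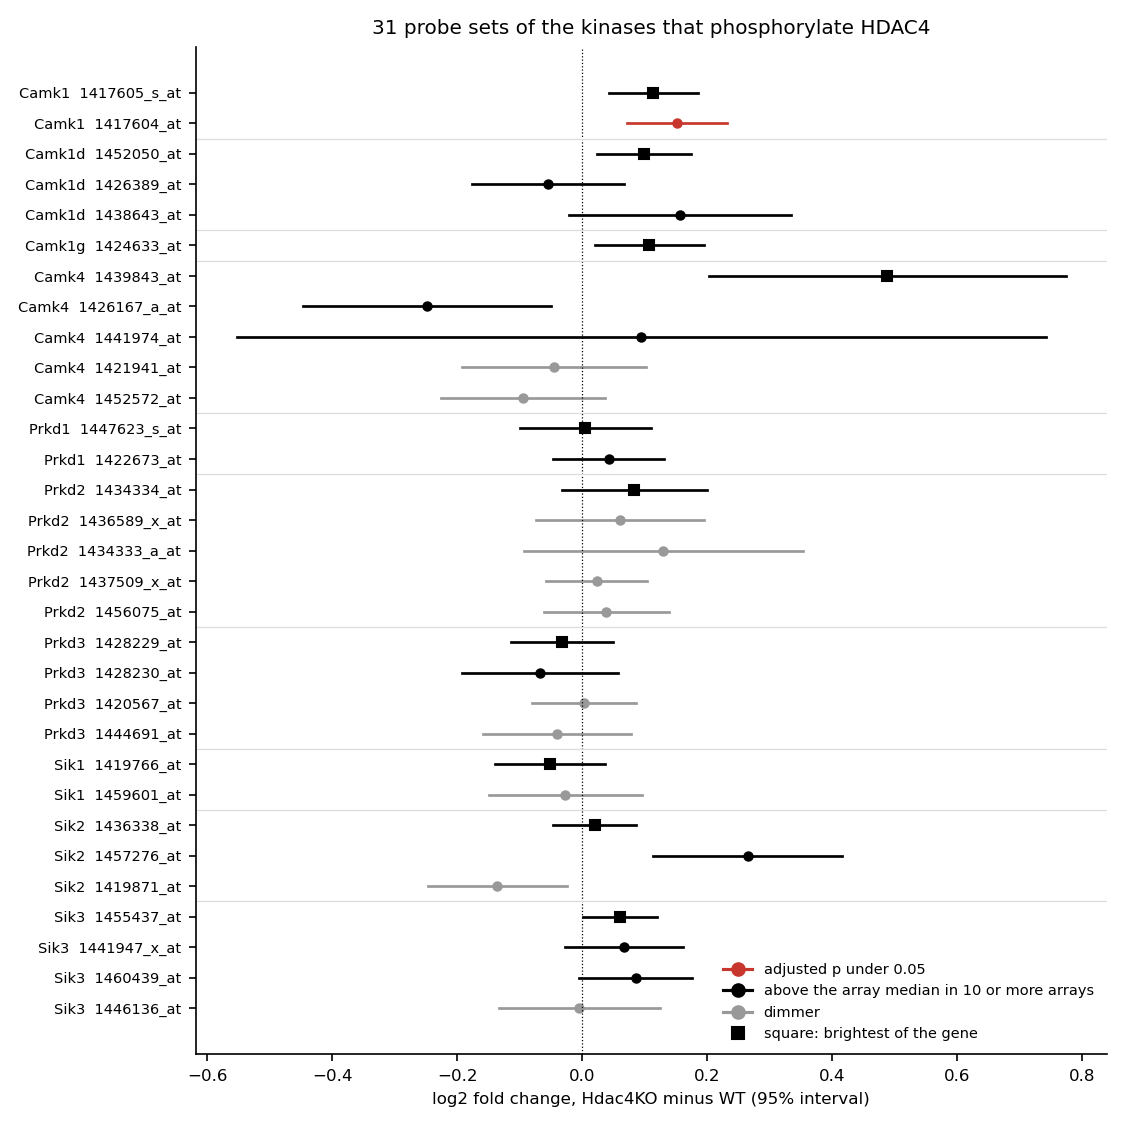
Log2 fold change, Hdac4KO minus WT (horizontal axis), with its 95% interval for each of the 31 probe sets, grouped by gene. Red marks the 1 probe set with an adjusted p under 0.05 (Camk1), black the others that are not dim, grey the dim ones, and squares the brightest of each gene; Camk4 has both the largest positive (0.49) and the largest negative (-0.25) value.

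The salt-inducible kinases belong to the AMPK-related family and hold class IIa deacetylases and CRTC coactivators in the cytoplasm. Sik1, whose RNA is itself induced by cAMP, had a lowest signal of 6.79 and a median of 6.90 in WT and of 6.73 and 6.85 in Hdac4KO arrays at 1419766_at. Its log2 fold change was -0.05 (95% interval -0.14 to 0.04, adjusted p = 0.567 by limma). The second probe set of Sik1, 1459601_at, was dim and gave -0.03.

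Sik2 was read by 3 probe sets that differed among themselves. At the brightest, 1436338_at, the genotypes were close, with medians of 9.90 in both and a log2 fold change of 0.02 (95% interval -0.05 to 0.09). At 1457276_at the log2 signals of WT replicates 1 to 10 were 6.33, 6.35, 6.52, 6.42, 6.19, 6.38, 6.44, 6.54, 6.59 and 6.80. Those of Hdac4KO replicates 1 to 10 were 6.74, 6.63, 6.48, 6.40, 6.75, 6.88, 6.81, 6.99, 6.76 and 6.79. Only 3 Hdac4KO arrays lay above every WT array, since WT replicate 10 stood at 6.80, but 9 of 10 lay above the WT mean. The log2 fold change was 0.26 (95% interval 0.11 to 0.42) and did not pass (adjusted p = 0.0566, limma). Without the 3 arrays against their sex label the adjusted p was 0.130, and without the arrays nearest the other genotype 0.106, by limma. The log2 fold change differed from that at the brightest probe set by 0.25, with an adjusted permutation p of 0.0546 over the 21 pairs. The third, 1419871_at, was dim and gave -0.14 (adjusted p = 0.176 by limma), with all 10 Hdac4KO arrays below the WT mean.

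Sik3 had 3 probe sets that were not dim, each with a log2 fold change above 0, and 0 of them passed by limma. At 1455437_at WT arrays ran from 9.44 to 9.58 and Hdac4KO arrays from 9.49 to 9.72, with a log2 fold change of 0.06 (95% interval 0.0012 to 0.12, adjusted p = 0.267 by limma). At 1441947_x_at it was 0.07 and at 1460439_at 0.09, with adjusted p of 0.464 and 0.309 by limma. The remaining 1446136_at was dim and gave -0.0043.

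When each gene was represented by its brightest probe set, 0 of the 10 kinases passed in either direction by limma, against 1.45% of 18193 genes higher and 0.517% lower. The log2 fold change was above 0 in 8 of the 10, the exceptions being Prkd3 and Sik1. The median was 0.07, against 0.01 over all genes. At an unadjusted p under 0.05, 5 of the 10 were higher and 0 lower, namely Camk1, Camk1d, Camk1g, Camk4 and Sik3. By that rule 12.8% of all genes were higher and 6.19% lower.

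Besides the called one, 3 probe sets lay near the threshold. When the dim probe sets were left out and the adjustment was over the other 22603, 4 of the members were higher, against 4.41% of all these, and they were both Camk1 probe sets (adjusted p = 0.0198 and 0.0372), Camk4 at 1439843_at (adjusted p = 0.0376) and Sik2 at 1457276_at (adjusted p = 0.0322), all by limma. With the 3′ to 5′ measure as a covariate 0 were, and the adjusted p of these 4 were 0.151, 0.137, 0.169 and 0.192 by limma. The directions of the 4 were kept under all alternatives tried.

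**Figure D4:**
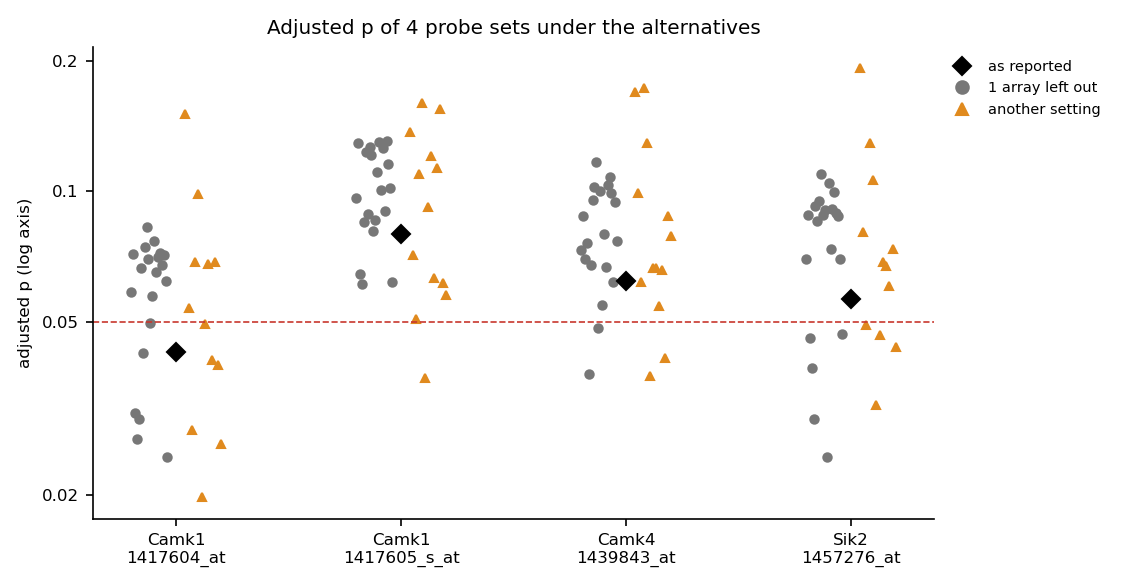
Adjusted p (vertical log axis) of the 4 probe sets nearest to a call as reported (black diamond), with each of the 20 arrays left out in turn (grey circles) and under the other settings (orange triangles); the dashed line is 0.05. Each probe set has alternatives on both sides of the line, from 12 of 32 passing for Camk1 at 1417604_at to 1 of 33 for Camk1 at 1417605_s_at.

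The genes that act with these kinases were read from 8 lists of 79 genes, of which 73 were measured and the others not analysed here, each at its brightest probe set. Of the 73, 11 were higher and 0 lower at an adjusted p under 0.05 by limma, against 1.45% and 0.517% of all genes, and their median log2 fold change was 0.05 against 0.01 over all genes. With the 3′ to 5′ measure as a covariate 0 of the 73 passed, and the log2 fold changes of the 11 were 0.11 to 0.36, against 0.11 to 0.41 without it (adjusted p = 0.0747 to 0.179 with it, by limma). With 1 array left out 4 to 15 passed, and Hdac5, Crtc3, Egr1 and Fos were among them in all 20 fits. The count fell to between 4 and 7 without any one of WT replicates 1, 2, 3, 4, 5, 6 and 7 or Hdac4KO replicates 5, 6, 7, 8 and 10. Without the 3 arrays against their sex label it was 4, those same genes, and without the arrays nearest the other genotype it was 6, with Prkca and Prkacb added.

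Upstream of protein kinase D, 2 of 6 protein kinase C isoforms were higher. They were Prkca (log2 fold change 0.12, SE 0.03, adjusted p = 0.0311 by limma) and Prkce (0.14, SE 0.03, adjusted p = 0.0331 by limma), a conventional and a calcium-independent form, both above the WT mean on all 10 Hdac4KO arrays. Upstream of CaM kinases I and IV, Camkk2, the 1 measured of 5 genes for CaM kinase kinases and calmodulin, gave 0.15 and did not pass (adjusted p = 0.0621, limma). Of 11 genes of the LKB1 complex and PKA, 1 was higher, Prkacb, which encodes a catalytic subunit of PKA (log2 fold change 0.11, SE 0.03, adjusted p = 0.0439 by limma). The PKA regulatory subunit gene Prkar1b gave 0.12 (adjusted p = 0.0749 by limma), and the median of the 11 was -0.02. Over all 34 probe sets of these 11 genes 1 was called higher and 1 lower by limma. The lower one was not the brightest of its gene.

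Of 12 other kinases that phosphorylate class IIa deacetylases, 0 passed by limma, 6 were higher at an unadjusted p under 0.05 (12.8% of all genes were), and the median log2 fold change was 0.06. Closest were Camk2b, a CaM kinase II subunit (0.13, adjusted p = 0.0683), and Mark4, a kinase activated by LKB1 (0.15, adjusted p = 0.070), both by limma. Among 11 subunits of PP2A and calcineurin, the phosphatases that can undo or oppose such phosphorylation, 1 was higher. This was Ppp3r1, the regulatory subunit of calcineurin (log2 fold change 0.15, SE 0.04, adjusted p = 0.0427 by limma), while Ppp2r2d of PP2A gave 0.13 (adjusted p = 0.0617 by limma). Of 9 nuclear export and import factors 0 passed by limma, while at an unadjusted p under 0.05, 4 were lower and 1 higher, Kpna1 (0.09), against 6.19% and 12.8% of all genes. The import factor Kpna2 gave -0.16 (adjusted p = 0.0542) and the exportin Xpo1, which carries HDAC4 out, gave -0.08 (adjusted p = 0.137), with all 10 Hdac4KO arrays below the WT mean of Xpo1.

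Of 8 measured substrates that the kinases share, 3 were higher and 0 lower, and the median log2 fold change was 0.12. Hdac5, a class IIa deacetylase exported by the same kinases, was higher in Hdac4KO brains (log2 fold change 0.17, SE 0.03, adjusted p = 0.0179 by limma). The CREB coactivators Crtc3 and Crtc2, which salt-inducible kinases keep in the cytoplasm, gave 0.13 (SE 0.03, adjusted p = 0.0198 by limma) and 0.21 (SE 0.05, adjusted p = 0.0481 by limma). For the 15 activity-induced genes, which CREB and MEF2 drive after calcium entry, the count was 4 higher and 0 lower and the median 0.12. These were Egr1 (0.41, adjusted p = 0.0162), Fos (0.26, adjusted p = 0.0203), Egr2 (0.35, adjusted p = 0.0337) and Per1 (0.18, adjusted p = 0.0442), all by limma. The lists were chosen with earlier results of these data known and are not independent support for a direction.

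**Figure D5:**
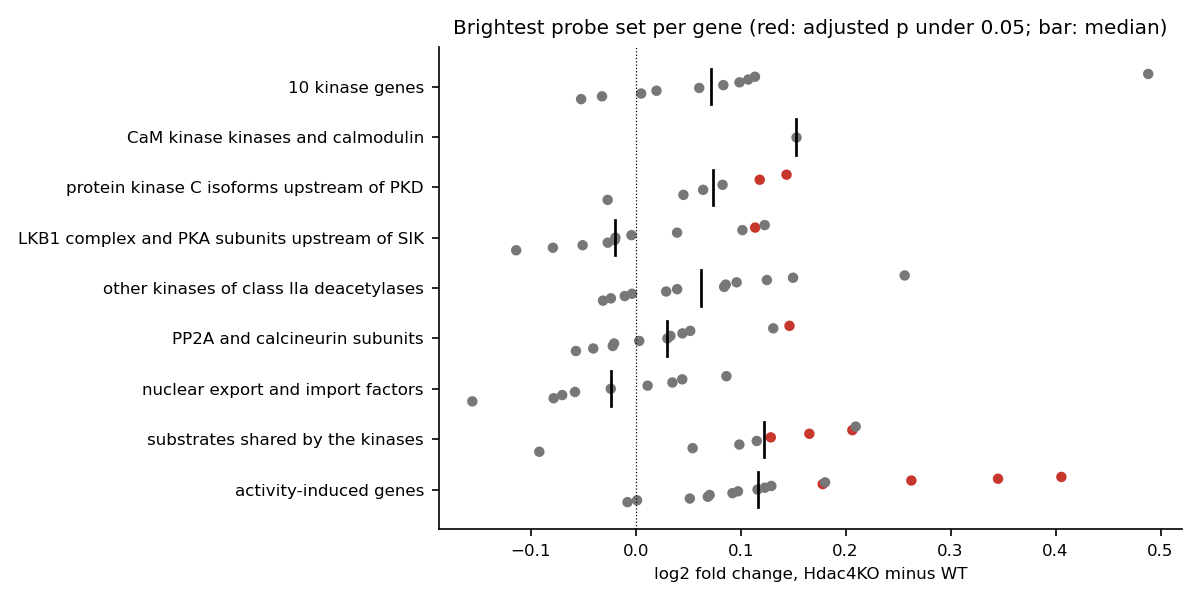
Log2 fold change, Hdac4KO minus WT (horizontal axis), of each gene at its brightest probe set, for the 10 kinases and the 8 lists of genes that act with them; red points have an adjusted p under 0.05 and black bars are medians. The list of shared substrates and that of activity-induced genes have the highest medians of the lists with over 1 gene, both 0.12, and all red points lie above 0.

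Markers of cell types in whole brain were set beside these values, each at its brightest probe set. Of all genes 1.45% were higher and 0.517% lower by limma, and 12.8% and 6.19% at an unadjusted p under 0.05. Of 10 lists, those of astrocytes and radial glia, the oligodendrocyte lineage, endothelial and mural cells, meninges, erythroid cells, cerebellar granule neurons and forebrain neurons had 0 genes past the threshold in either direction by limma (unadjusted, 1 was higher in each of the erythroid and granule neuron lists, and 1 lower in each of the astrocyte and meninges lists). Of 8 neuronal markers 1 was lower, Nefl (log2 fold change -0.28), and at an unadjusted p under 0.05 there were also 2 higher, Syt1 (0.14) and Rbfox3 (0.12). Over the 22 probe sets of these 8 genes 2 were called lower, in 2 genes, and 0 higher by limma. Of 7 microglial markers 1 was higher, Tmem119 (0.26), 3 were higher unadjusted, and the median was 0.13. Of 5 choroid plexus markers 1 was lower, Ttr (-0.14), 2 were lower unadjusted, and the median was -0.14. With the 3′ to 5′ measure as a covariate 0 genes of the neuronal, microglial and choroid plexus lists passed by limma. The mean level of the microglial list was 7.80 to 8.07 in WT and 7.85 to 8.30 in Hdac4KO arrays, that of the choroid plexus list 7.90 to 8.40 and 7.85 to 8.16. The part of these cell types in the kinase values was not tested.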

How the data were processed

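Whole brain RNA from 10 WT and 10 Hdac4KO neonates was measured on 20 Affymetrix mouse genome arrays. The authors labelled 200 ng of total RNA per array and deposited log2 signals, 1 per probe set and array, already normalized between arrays; how they were summarised and normalized was not given in the sources used here. After removal of 64 control probe sets, 45037 were tested in R 4.3.3 with limma 3.58.1 (lmFit, then eBayes), without covariates and with Benjamini-Hochberg adjustment over all of them. Symbols came from the platform annotation (34945 probe sets with 1 symbol, 932 with several, 9160 with none). The brightest probe set of a gene is the one with the highest mean signal over the 20 arrays, and levels of different probe sets were compared for nothing else. Array number limits the precision. Genotype differences within a gene were compared with two-sided permutation tests of 100000 resamples. Whether WT and Hdac4KO arrays came from separate litters is not given, so p-values measure the spread between these samples. The fits were tested on simulated data.

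The members, the lists and the tests were chosen with earlier results of these data known. All member probe sets, Hdac4, the 2 genes of smallest p in each pathway list and the 3 genes most like a called probe set were named by rule. Crtc2, Egr2, Per1, Nefl, Tmem119 and Ttr, the correlations between probe sets of a gene, the pathway counts under the alternatives, the check of which arrays matched their sex label and 2 of the sets of arrays left out were chosen after values were seen. Alternatives were other tests (the methods' t-test and Welch's test on the same values), labelled sex, the 3′ to 5′ measure or replicate number as terms, dim probe sets left out, median centring, quantile normalization, array weights, eBayes with trend and robust fitting, one probe set per gene and each array left out in turn. The signals gave no sign that replicate numbers pair the arrays. After each genotype's mean was subtracted, 1 of 10 numbers had a correlation above 0.1 (range -0.15 to 0.16). For 1 of 10 WT arrays the most alike Hdac4KO array had the same number. Whether arrays of the same number shared a litter or processing is not given.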

Additional observations from a re-analysis of the deposited data

Results flagged for a closer look

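In 3 of 62 groups of 10 arrays, 1 for each probe set and genotype, an array stood apart from the others by Dixon's criterion at 95%, and chance gives about 1 in 20. At Prkd2 1434334_at, WT replicate 6 (6.19) was lowest, with the others between 6.49 and 6.65 and a gap of 0.65 of the range. At Sik2 1436338_at, WT replicate 9 (9.71) was lowest, with the others between 9.84 and 9.96 and a gap of 0.522 of the range. At Sik3 1455437_at, Hdac4KO replicate 5 (9.72) was highest, with the others between 9.49 and 9.61 and a gap of 0.49 of the range.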

How the results depend on the processing

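The number of kinase probe sets higher in Hdac4KO brains, 1 as reported, was 0 with Welch's test, the 3′ to 5′ covariate, median centring, one probe set per gene, both arrays nearest the other genotype left out, and the 3 arrays against their sex label left out. It was 2 with sex as a covariate, trend and robust eBayes or array weights, 4 without dim probe sets, and 0 to 3 with 1 array left out. The number lower was 0 in every fit. With the replicate block 1 was higher, Camk4 at 1439843_at (adjusted p = 0.0414 by limma) in place of Camk1 at 1417604_at (adjusted p = 0.0687 by limma), and 0 lower, and 948 of all probe sets were called, 308 higher and 640 lower. Over all probe sets 927 were called as reported, 43 with the 3′ to 5′ covariate, 1674 without dim probe sets, 1501 with array weights, 517 with one probe set per gene, 327 without the arrays nearest the other genotype, 415 without those against their sex label, and 351 to 1715 with 1 array left out. Pairs of probe sets of 1 gene with unequal differences, 1 as reported, were 3 without dim probe sets, 0 under either of the added exclusions, and 0 to 5 with 1 array left out. The 11 pathway genes called became 0 with the 3′ to 5′ covariate, 6 with median centring, 7 with the replicate block, 20 without dim probe sets or with trend and robust eBayes, 6 without the arrays nearest the other genotype, 4 without those against their sex label, and 4 to 15 with 1 array left out. All of those called were higher, except that Kpna2 was lower without dim probe sets, with quantile normalization, trend and robust eBayes, array weights or one probe set per gene, and without any one of WT replicate 10 and Hdac4KO replicates 9 and 10. Prkd1 at 1447623_s_at, at 0.0053, changed sign to -0.026 with that covariate, -0.0068 with quantile normalization, -0.0056 with array weights, -0.015 and -0.010 under the added exclusions, and lay between -0.019 and 0.032 with 1 array left out. The causes were not tested, other than that leaving out dim probe sets or other probe sets of a gene reduces the number tested. One probe set per gene also leaves out the called Camk1 probe set, 1417604_at, which is not the brightest of its gene, so it could not pass there.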

Other observations

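Within WT brains the Camk4 signals at 1439843_at fell into 2 separate ranges. They were 10.11 to 10.24 in replicates 1, 4, 5, 6, 8 and 9 and 10.65 to 10.79 in replicates 2, 3, 7 and 10. Over the 10 WT arrays r of 1439843_at was 0.89 with 1441974_at and -0.72 with 1426167_a_at (permutation p = 0.0012 and 0.0266, adjusted 0.0252 and 0.140 over 42 relations). By rho the first was 0.67 (adjusted permutation p = 0.203). A correlation over arrays in separate ranges largely measures the step between them. Hdac4KO arrays were also apart at 1439843_at, at 10.33 to 10.51 in replicates 4, 5 and 9 and 10.84 to 11.45 in the others. Over the 10 Hdac4KO arrays r of 1439843_at was 0.79 with 1441974_at and -0.68 with 1426167_a_at (permutation p = 0.0067 and 0.0321, adjusted 0.0694 and 0.150 over 42 relations). With the dim 1421941_at and 1452572_at r was -0.28 and -0.11. At 1441974_at WT replicates 1 to 10 gave 7.20, 8.36, 8.17, 7.30, 7.47, 7.40, 8.31, 7.18, 6.68 and 7.79, and Hdac4KO replicates 1 to 10 gave 8.27, 8.73, 8.06, 7.23, 7.03, 8.63, 7.98, 8.24, 5.88 and 6.75. WT replicates 2, 3, 7 and 10 were the highest at this probe set as well and the lowest at 1426167_a_at (7.57 to 7.68). These 4 are labelled female, as is replicate 9, whose sex-linked genes were of the male pattern. Replicate 5, at 10.12, is labelled male and had the female pattern. The colony was of mixed background, and whether the mice differ in the sequence that these probes read was not tested. For Sik1, 1419766_at and the dim 1459601_at had r = 0.87 and rho = 0.92 in WT (n = 10, permutation p = 0.00088 and 0.00054, adjusted 0.0252 and 0.0227 over 42 relations). In Hdac4KO the sign was the other way, r = -0.57 and rho = -0.42, and the relation did not pass (n = 10, permutation p = 0.0838 and 0.231, adjusted 0.293 and 0.442). Without the 2 farthest arrays r was 0.73 and -0.57. The difference between the genotypes in this relation was not tested.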
